A study of Mus musculus with 6 samples.

Results

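DNA replication and S-phase genes were followed across brown preadipocytes and the adipocytes made from them, with and without pretreatment with fibroblast growth factor 8 (FGF8). The set holds 35 gene symbols of the 26264 listed in each library, taken from a written list of licensing factors, replisome subunits, enzymes of deoxynucleotide synthesis and regulators of entry into S phase. All 35 were found in all 6 libraries, and each passed the filter on low counts in every comparison. The lowest count of any member was 60 reads, for Ccnd1 in untreated cells at the last time point.

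Before S phase, the origin recognition complex, with Cdc6 and Cdt1, loads the ring-shaped helicase built from Mcm2 to Mcm7 onto DNA, which licenses each origin for a single round of replication. Mcm10, Cdc45 and the GINS complex then turn the loaded helicase into an active replication fork, where polymerases, the sliding clamp Pcna and its loader copy both strands. Cyclins D and E with their kinases inactivate the retinoblastoma proteins, so that E2F factors switch on many of these genes, while Cdkn1a (p21) inhibits the kinases. Growth factors act on this step largely through cyclin D, and preadipocytes leave the cell cycle when they become adipocytes.

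The data were bulk RNA sequencing of 1 library for each combination of 2 treatments and 3 days, without replicates, so 2 single libraries are compared without a p-value. The cells were immortalized cells from the stromal vascular fraction of brown fat of wild-type Bl6N mice. All groups carried the SV40 large T antigen, a viral protein that binds retinoblastoma proteins and p53. The values describe immortalized cultures and not separate animals, and whether the D0 and later libraries came from the same line was not tested. The FGF8 groups received 5.5 nM FGF8 for 48 h before harvest (D0) or before differentiation. The control groups are called untreated in the sample labels and vehicle-treated in the series' design text. Later groups were harvested on D3 or D7, and D7 is named by 7 days on differentiation medium, which followed 2 days of induction. The paper counts its day 3 from the end of FGF treatment, as 2 days of induction plus 1 day on differentiation medium. If D3 is that day, the names D3 and D7 count from different starts. The titles name immortalized brown cells and are followed here, although the labels' growth protocol is written for primary cells of white fat. RNA came from whole cultures, so fewer cells in S phase and less RNA per cell cannot be told apart.

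The libraries held 16403254 to 38551551 counts. Of 6 adipocyte markers, Adipoq, Plin1 and Cidec had at most 3 counts at D0 and at least 8456 in every later library, while Pparg, Fabp4 and Lpl already had 112 to 5617 counts at D0. Of 6 brown adipocyte markers, Cidea and Cox8b were at 0 at D0 and had at least 3152 counts at D7, Ucp1 had 0 counts in untreated and 1037 in FGF8-treated cells at D0, and Dio2 was lower at D7 (37 and 23 counts) than at D0 (207 and 47). Of 6 preadipocyte markers none was at 0 in any library. Their summed level in CPM (counts scaled to the library total) was lower in the FGF8 library on each day, at 1455 against 5516 at D0, 402 against 1586 at D3 and 255 against 1134 at D7. Each of the 6 was lower with FGF8 on each day except Thy1 at D0, which had 2773 normalized counts without and 4427 with FGF8. The summed adipocyte level was lower with FGF8 at D0 (102 against 359.5 CPM), where Lpl made up most of it with 1582 against 5617 counts, and higher at D3 (23287 against 14425) and D7 (20419 against 18102). Of 6 macrophage markers, Ptprc and Adgre1 had at most 1 count, Itgam at most 3 and Mrc1 at most 13, whereas Csf1r had 4 to 61 and Cd68 27 to 141. Endothelial markers summed to 67.2 CPM in untreated D0, where Kdr had 877 counts, and to at most 8.48 in the other libraries. The D0 libraries also stood apart in genes chosen after their values were seen. At D0, Xist had 2530 counts without FGF8 and 5837 with it, but it had 7 to 26 counts in the 4 later libraries. Ifi202b had 10511 and 5711 counts at D0 and at most 1 later, and Gbp2b had 4837 and 935 counts at D0 and at most 1 later. Ddx3y, a Y-linked gene, lay at 104 to 139 CPM in all 6 libraries. The part of this difference in any comparison of D0 with a later day was not tested and cannot be told apart from the day, so comparisons between D3 and D7 are given beside them. The D0 libraries also differed from each other in these genes. Without and with FGF8, Xist lay at 154 and 323 CPM, Ifi202b at 641 and 316, and Gbp2b at 295 and 51.7. The part of this in the FGF8 comparison at D0 was not tested either.

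Where the RefSeq promoter table had an entry, the promoters of the genes were searched for sites of the factors known to drive S-phase genes. It held 35 promoters (250 bases before to 50 bases after the start) of 28 of the genes. It had no entry for Mcm4, Gins1, Gins2, Pole, Ccne2, Ccnd1 and Ccnd2. The E2F site was searched as TTTCCCGC, TTTGGCGC, TTTGCCGC or TTTCGCGC on both strands, and it was found in 13 of 28 genes (46.4%), against 3.15% of 19526 genes of the count files with a promoter. With the 250 bases before the start alone the count was 8 of 28 (28.6%), against 2.6%. CCAAT, the site of NF-Y, was found in 17 of 28 genes (60.7%) against 42.1%, and the CHR element of cell-cycle genes, searched as TTTGAA or TTCGAA, in 6 of 28 (21.4%) against 19.6%. Matches are descriptions of the sequence, not bound sites.

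Merging overlapping matches gave 17 E2F sites in the 13 genes, 9 of them before and 8 after the start. The sites below belong to 4 genes described in detail later (Rfc3, Orc1, Cdt1 and Cdc6), to the helicase genes with a site read on both strands (Mcm5 and Mcm6), and to Pola1 and E2f2, which fell and rose with the day of harvest. Each is given on the strand of the gene, 5′ to 3′, with up to 10 flanking bases and the E2F match in capitals, and was placed in GRCm39 by exact match of the RefSeq sequence (GRCm38.p6).
Rfc3 (chromosome 5, 151574666 to 151574693, minus strand, 2 matches at the start): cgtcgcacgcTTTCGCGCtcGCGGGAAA
Orc1 (chromosome 4, 108436614 to 108436641, plus strand, 27 bases before the start): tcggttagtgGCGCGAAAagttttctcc
Cdt1 (chromosome 8, 123294776 to 123294803, plus strand, after the start): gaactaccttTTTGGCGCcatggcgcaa
Cdc6 (chromosome 11, 98798829 to 98798856, plus strand, 138 bases before the start): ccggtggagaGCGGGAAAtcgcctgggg
Mcm5 (chromosome 8, 75835975 to 75836004, plus strand, 153 bases before the start): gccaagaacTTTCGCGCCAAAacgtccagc
Mcm6 (chromosome 1, 128287532 to 128287561, minus strand, 110 bases before the start): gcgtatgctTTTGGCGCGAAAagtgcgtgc
Pola1 (chromosome X, 92675882 to 92675909, minus strand, 138 bases before the start): tcatcacaggGCGCCAAAtgcactcccg
E2f2 (chromosome 4, 135899614 to 135899634, plus strand, after the start): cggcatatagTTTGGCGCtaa

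Upstream of its E2F sites, Rfc3 also held a CCAAT match, read on the other strand, and a CHR match. They are in capitals in the 216 bases that lie before its annotated exons, at chr5:151574708-151574923 on the minus strand.
Rfc3 upstream: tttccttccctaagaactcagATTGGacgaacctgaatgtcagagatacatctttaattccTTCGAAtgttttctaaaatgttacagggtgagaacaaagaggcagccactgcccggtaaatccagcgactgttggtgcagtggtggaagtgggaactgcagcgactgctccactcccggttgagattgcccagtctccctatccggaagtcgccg

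**Figure D1:**
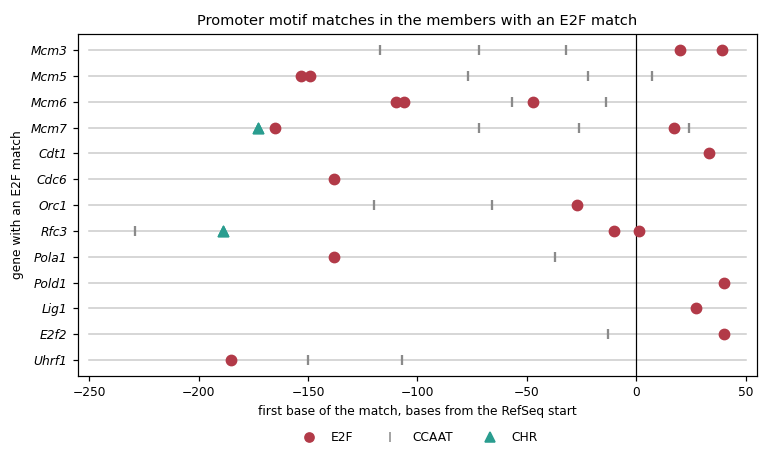
Position of the E2F, CCAAT and CHR matches in 1 promoter of each of the 13 genes with an E2F match. It is the first promoter entry of the gene that holds an E2F match, and matches in other entries are not shown. The x axis gives bases from the RefSeq start (the window runs from 250 bases before to 50 after), and each row is a gene. The E2F matches begin between 185 bases before and 40 bases after the start, and Mcm3, Mcm6, Mcm7 and Rfc3 have more than 1 site.

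Levels of single members are given as normalized counts, that is counts divided by the DESeq2 median-of-ratios size factor of the library. Between genes, only levels per length (counts per kilobase of exon, scaled to the same sum in each library) were compared. On that scale the median member lay above 77.3% to 88.4% of the genes with a level of at least 1. In untreated preadipocytes Mcm6 stood at 526 and Pcna at 509.9, whereas E2f2 stood at 5.5. The helicase subunits Mcm2 to Mcm7, which act as 1 ring, lay within 2.36-fold to 3.10-fold of each other in the 6 libraries. Reads of the whole set made up 4121 CPM in untreated and 5799 in FGF8-treated cells at D0, 3808 and 4958 at D3, and 2992 and 3446 at D7.

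**Figure D2:**
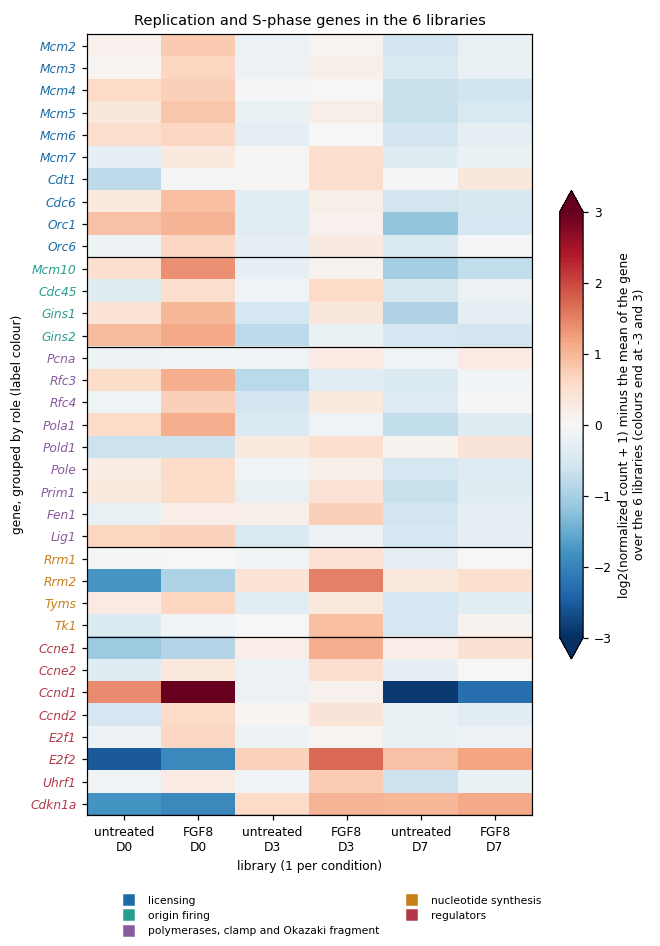
Heat map of the 35 genes (rows, grouped by role) in the 6 libraries (columns). Colour gives log2(normalized count + 1) minus the mean of the gene over the 6 libraries, and Ccnd1 passes the end of the scale at D0. The highest library was FGF8 at D0 for 21 genes and FGF8 at D3 for 13, and the lowest was untreated D7 for 23, while E2f2, Rrm2, Ccne1 and Cdkn1a were lowest at D0.

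FGF8-pretreated cells had higher levels than untreated cells of the same day for nearly all of the set. Log2 fold changes were taken between values of log2(normalized count + 1), and the interval is a 95% exact (Clopper-Pearson) interval that covers counting error only. The median over the 35 genes was 0.50 at D0, 0.48 at D3 and 0.28 at D7, against 0.05, 0.08 and 0.08 over all genes whose pair averaged 20 or more normalized counts. It was above 0 for 34, 35 and 33 of the 35 genes, where 54.1%, 55.5% and 59.2% of all genes were. The member median exceeded the value of 79.5%, 78.7% and 73.7% of all genes on the 3 days. Its distance from the median of all genes was 0.44 to 0.45 at D0, 0.40 at D3 and 0.20 at D7 under each of 4 scalings, while the number of members above 0 ranged from 33 to 34, 34 to 35 and 32 to 34. The summed preadipocyte markers were lower and, at D3 and D7, the adipocyte markers higher in the same FGF8 libraries, and their part in these differences was not tested.

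The size of the difference was mostly under 2-fold. At D0, 2 of 35 genes were at least 2-fold higher (background 7.27% of all genes) and none was 2-fold lower (10.8%). At D3 these counts were 1 (3.8%) and none (12.1%), and at D7 no member was 2-fold higher (1.12%) or lower (8.74%). Under the rule that the counting interval lies above 0, 30 of 35 genes were higher at D0 (background 39.9%), 34 at D3 (42.8%) and 31 at D7 (42.8%). The interval lay below 0 for Cdkn1a at D0 (1 of 35, background 32.6%), for none at D3 (33.3%) and for Ccnd2 at D7 (1 of 35, background 28%). This rule, chosen after the data were seen, passes many genes because deep counts give narrow intervals.

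**Figure D3:**
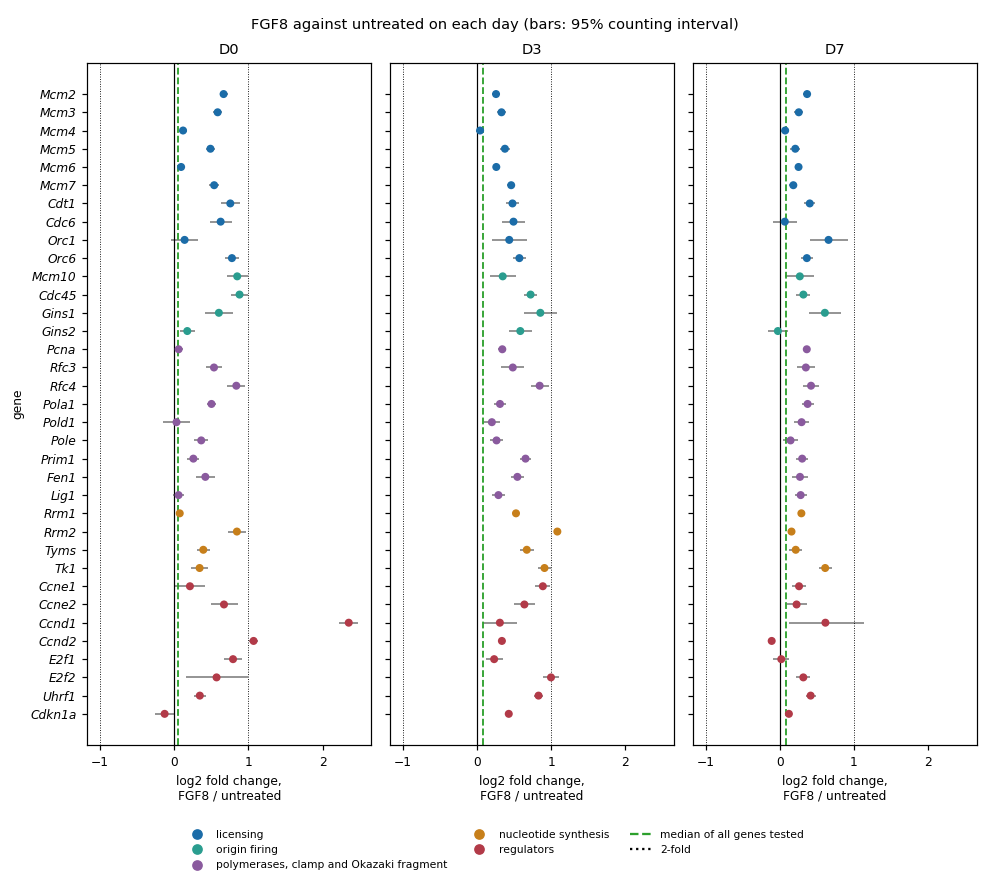
Log2 fold change of FGF8 against untreated cells for each of the 35 genes (y axis) at D0, D3 and D7 (panels). Points are single comparisons of 2 libraries, bars are 95% counting intervals, the green dashed line is the median of all genes and dotted lines mark 2-fold. Points lie to the right of 0 for 34, 35 and 33 genes, and Ccnd1 at D0 lies farthest out at 2.35.

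To ask for a common FGF8 effect, edgeR's quasi-likelihood model was fitted with day as a blocking term. The days then stand for replicates, and any change of the response from day to day adds to the error. Its estimate was positive for all 35 genes, with a median of 0.39. None passed an adjusted p of 0.05 (background 0.0206% of 14569 genes higher and 1.25% lower). At an unadjusted p under 0.05, 20 of 35 genes were higher, against 10.3% of all genes, and none was lower. This count was 15 without the D0 pair (14% of all genes), 3 without the D3 pair (2.36%), 8 without the D7 pair (4.88%) and 1 with no day block (0.447%). DESeq2's Wald test of the same design called 6 of 35 higher (background 3.42%), namely Rfc4, Gins1, Cdc45, Orc6, Tk1 and Cdt1. Without the D0 pair, which stands apart, edgeR called 4 higher (background 3.96%), namely Tk1, Rfc4, Uhrf1 and E2f2. The smallest adjusted p with all libraries was that of Rfc4 (log2 fold change 0.68, standard error 0.14, adjusted p = 0.0981 by edgeR quasi-likelihood with Benjamini-Hochberg adjustment, higher in 3 of 3 pairs).

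Of the 10 licensing factors, all were higher with FGF8 on all 3 days, but Mcm4 at D3 was lower when libraries were scaled to total counts. Mcm2, a helicase subunit, had 6096 normalized counts in untreated and 9669.5 in FGF8-treated cells at D0, 4924 and 5885 at D3, and 3742 and 4835 at D7. For Mcm4 the values were 8514 and 9243 at D0, 5572 and 5738 at D3, and 3538.5 and 3724 at D7, the smallest difference within the ring at D3 and D7. Mcm6, the most abundant subunit per length, had 12069.6 and 12870.1 at D0, 6958 and 8336 at D3, and 5758 and 6869 at D7. The other 3 subunits (Mcm3, Mcm5 and Mcm7) lay between 2446 and 7095 normalized counts, and each was higher with FGF8 on each day. The 6 subunits of the ring thus kept the same direction, with log2 fold changes at D0 from 0.09 for Mcm6 to 0.67 for Mcm2.

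Cdt1, which brings the helicase to the origin, had 1122 and 1896 normalized counts at D0, 1996 and 2782 at D3, and 1859.8 and 2464 at D7. Its log2 fold changes were 0.76 (95% interval 0.63 to 0.88), 0.48 and 0.41, and its FGF8 libraries at D3 and D7 held more than any untreated library. Cdc6, the ATPase that works with Cdt1, had 872 and 1347 at D0, 572 and 804 at D3, and 490.5 and 515 at D7, where the interval of its log2 fold change of 0.07 reached from -0.09 to 0.23. Orc6, a subunit of the origin recognition complex, had 2193 and 3761, 1978 and 2941, and 1850.5 and 2386. Orc1, the largest subunit of that complex, had 629 and 693 at D0, 278 and 376 at D3, and 150.5 and 238 at D7. It was the member with the largest difference at D7, at 0.66 (0.40 to 0.92), whereas at D0 its interval included 0. Orc1 shares 721 exon bases with genes on the other strand. The strand setting of the counting is not given in the sources used here, so such overlaps, which other members also have, add uncertainty.

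The origin-firing factors had the highest group median at D0, 0.73 over 4 genes. Cdc45 (chromosome 16, 18599195 to 18631551), which tethers the helicase into the active fork, had 1378 and 2537 normalized counts at D0, 1628 and 2688 at D3, and 1255 and 1566 at D7. Of its 4322 exon bases, 697 overlap genes on the other strand. Ufd1 among them had 1572 and 2064 normalized counts at D0, 2040 and 2752 at D3, and 2529 and 2401 at D7. Mcm10, which activates the fork, had 862 and 1554, 513 and 653, and 299 and 361. Gins1, a GINS subunit, had 536 and 814, 281 and 509.6, and 214 and 328. Cdc45 was over 1.5-fold higher with FGF8 at D0 and D3, Gins1 on all 3 days and Mcm10 at D0. Gins2, another GINS subunit, had 1930.1 and 2180.2, 574 and 861, and 687 and 676. Its log2 fold change of -0.02 at D7 changed sign with the scaling. Of its 4097 exon bases, 2758 overlap Gse1 on the other strand, which had 1043 and 835 normalized counts at D0, 2136 and 1996 at D3, and 1794.5 and 1957 at D7.

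Among polymerases, clamp and Okazaki fragment enzymes, the clamp loader subunits Rfc4 and Rfc3 had the largest FGF8 differences at D0, and Pold1, Lig1 and the clamp Pcna the smallest. Rfc4 had 1193 and 2132 normalized counts at D0, 891 and 1602 at D3, and 1002 and 1343 at D7, with log2 fold changes of 0.84, 0.85 and 0.42. Of its 2224 exon bases, 646 overlap genes on the other strand. Eif4a2 among them had 8621 and 6963 normalized counts at D0, 6693 and 7999 at D3, and 9724 and 11452 at D7. Rfc3 had 1564 and 2269, 606 and 847, and 786.5 and 1005. Pcna (chromosome 2, 132091082 to 132095234), which has 2 annotated pseudogenes that may share reads, had 5166 and 5382 at D0, 5339 and 6766 at D3, and 5234 and 6744 at D7. Its untreated libraries thus stayed level over the 3 days, and its FGF8 libraries were higher at D3 and D7.

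Pola1, the catalytic subunit of the polymerase that starts new strands, had 4242 and 6009 normalized counts at D0, 2104 and 2609 at D3, and 1684 and 2186 at D7. Its partner Prim1, the primase, had 3124 and 3736, 2195 and 3458, and 1601 and 1976. Pold1, of the lagging-strand polymerase, had 718 and 734 at D0, 1389.8 and 1598 at D3, and 1208 and 1483 at D7. From D0 to D3, Pola1 was lower and Pold1 higher in both treatments. At D0 the counting intervals of Pold1, Pcna and the ligase Lig1 included 0, and the value of Pold1 (0.03) changed sign when the scaling used the 2 libraries alone. Pole, of the leading-strand polymerase, Fen1, the flap nuclease, and Lig1 were higher with FGF8 by log2 0.06 to 0.42 at D0, 0.26 to 0.55 at D3 and 0.15 to 0.28 at D7. For Fen1, 2134 of 3236 exon bases overlap genes on the other strand, Tmem258 among them.

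Nucleotide synthesis enzymes differed most at D3, with a median of 0.79 over 4 genes. Rrm2 (chromosome 12, 24757811 to 24764145), the regulated subunit of ribonucleotide reductase, had 1134 and 2038 normalized counts at D0, 5204 and 11036 at D3, and 4852 and 5419 at D7. It was the only member at least 2-fold higher at D3, at 1.08 (1.03 to 1.13), and fell under 2-fold (0.98) with total counts. By D7 the difference was 0.16 (0.11 to 0.21). Of the 3320 exon bases of Rrm2, 1437 overlap a gene on the other strand. Rrm1, its constant partner, had 8472 and 8918, 8299 and 11954, and 7210.5 and 8832, so its levels spanned a far narrower range than those of Rrm2. Tk1, thymidine kinase, had 1416 and 1795, 1873 and 3523, and 1336 and 2045, and Tyms, thymidylate synthase, had 2510.3 and 3294, 1661 and 2647, and 1464 and 1702. Tk1 was the member with the smallest p without the D0 pair (log2 fold change 0.74, standard error 0.14, adjusted p = 0.0144 by edgeR quasi-likelihood with Benjamini-Hochberg adjustment), while with all libraries its adjusted p was 0.125 in that test.

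Cyclin D genes had the largest differences at D0, and these were no longer of that size at later days. Ccnd1 (chromosome 7, 144483668 to 144493662), which encodes cyclin D1, had 849 normalized counts in untreated and 4344 in FGF8-treated preadipocytes, a log2 fold change of 2.35 (2.23 to 2.48). At D3 it had 282 and 350.3, and at D7 42.6 and 65.8, with log2 fold changes of 0.31 and 0.62 and intervals from 0.08 to 0.54 and from 0.13 to 1.14. Of its 4783 exon bases, 2315 overlap LTO1 on the other strand, which had 585 and 463 normalized counts at D0, 396 and 623 at D3, and 395 and 406 at D7. LTO1 was thus lower with FGF8 at D0 and higher at D3 and D7, and its part in the Ccnd1 values was not tested. Ccnd2 (chromosome 6, 127102125 to 127129156), for cyclin D2, had 4380.1 and 9197 at D0, 6428.5 and 8116 at D3, and 5392 and 5004 at D7. Its log2 fold change went from 1.07 (1.01 to 1.13) to 0.34 and to -0.11 (-0.16 to -0.06).

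Ccne1 and Ccne2 encode cyclin E, the partner of the kinase that starts S phase. Ccne1 had 540.5 and 626 normalized counts at D0, 1330.0 and 2463 at D3, and 1324 and 1588 at D7, with its largest difference, 0.89, at D3. Ccne2 had 571 and 910.2, 653 and 1018, and 620.4 and 727. E2f1, an activating E2F, had 1138 and 1973 at D0, 1150.5 and 1351 at D3, and 1122 and 1139 at D7, so it was higher with FGF8 mainly at D0. Its D7 value of 0.02 changed sign with the scaling. E2f2, a close relative, had 116 and 173 at D0, 1087 and 2172 at D3, and 1223 and 1526 at D7. Uhrf1, which keeps DNA methylation on new strands, had 3261 and 4142, 3337 and 5935, and 2298 and 3070.5.

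Cdkn1a (chromosome 17, 29309936 to 29319701), the kinase inhibitor of the set, had 1422 and 1299 normalized counts at D0, 7434 and 10008 at D3, and 9975 and 10871 at D7. It was thus slightly lower with FGF8 at D0, at -0.13 (-0.26 to -0.001), and higher at D3, at 0.43 (0.38 to 0.47). Every later library held more than either D0 library. The largest FGF8 difference of a gene fell on D0 for 17 members, on D3 for 15 and on D7 for 3. In all, 32 of 35 genes (91.4%) were higher with FGF8 on all 3 days, against 31.2% of 13256 genes, and the exceptions were Gins2, Ccnd2 and Cdkn1a. For 25 genes the counting interval lay above 0 on all 3 days. On D0, D3 and D7 taken singly, 39.9%, 42.8% and 42.8% of all genes passed that rule. The share of all genes was not taken for the 3 days together or for the day of the largest difference. No test of a difference between days could be run without replicates.

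**Figure D4:**
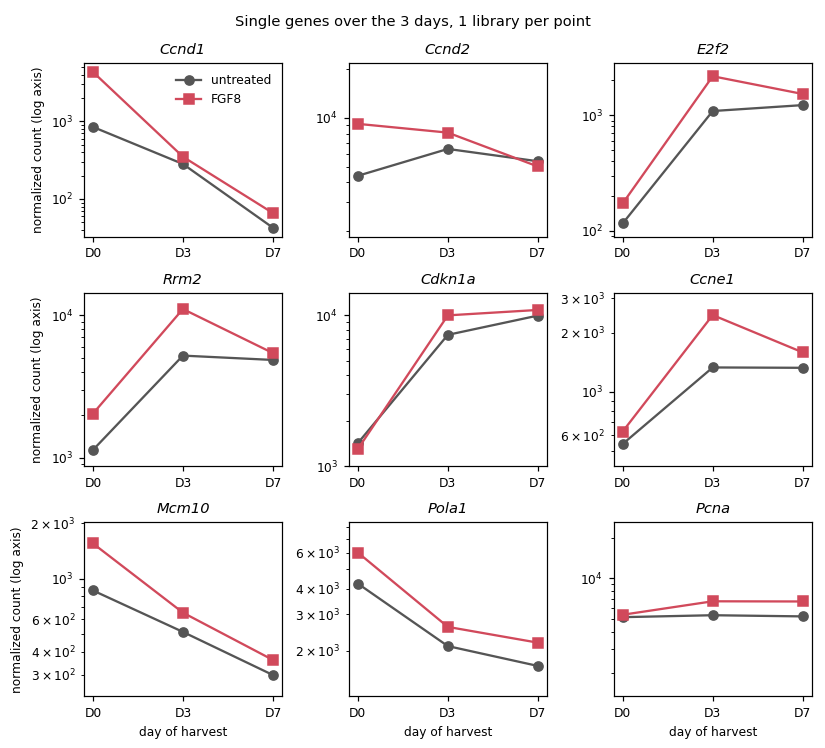
Normalized counts (y axis, log scale) of 9 genes at D0, D3 and D7 in untreated (grey) and FGF8-pretreated (red) cells, 1 library per point. Ccnd1 falls from 4344 to 65.8 with FGF8 and from 849 to 42.6 without, E2f2, Rrm2, Cdkn1a and Ccne1 are higher at D3 than at D0, and Pcna stays between 5166 and 6766.

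With differentiation members went in both directions, as did all genes. From D0 to D3, 13 genes went up and 19 down in both treatments, and 3 went in opposite directions. With another scaling the sign changed for Rrm1, E2f1 and Uhrf1 in untreated and for Mcm7, Cdc45 and Ccne2 in FGF8-pretreated cells. In untreated cells 4 genes were at least 2-fold higher (background 19.5%) and 6 at least 2-fold lower (15.5%) at D3, and in FGF8-pretreated cells 5 (24.1%) and 5 (22%). The median log2 fold change was -0.24 untreated (-0.14 with TMM scaling) and -0.35 with FGF8 (-0.56 with total counts). From D0 to D7, 4 untreated genes were 2-fold higher (background 23.7%) and 10 lower (19.5%), and with FGF8 5 were higher (26.1%) and 10 lower (22.6%), with medians of -0.50 and -0.85. The FGF8 and untreated time courses are given side by side, and their difference was not tested.

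A change shared by the treatments was tested in the same edgeR fit with treatment as a block. From D0 to D3, 8 of 35 genes rose (background 26.2%) and 11 fell (19.8%). From D0 to D7, 6 rose (29.2%) and 17 fell (24.8%). These comparisons share the D0 libraries, which also differ from the later ones in Xist and the other genes named above. The share of members that fell stood above its background on both days. The share that rose was near its background at D3 and below it at D7.

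Genes that rose at D3 were E2f2, Cdkn1a, Rrm2, Ccne1, Pold1, Cdt1, Tk1 and Fen1. E2f2 rose by log2 3.51 (standard error 0.23, adjusted p = 0.00249 by edgeR quasi-likelihood with Benjamini-Hochberg adjustment) and was still higher at D7, by 3.32. Cdkn1a rose by 2.73 and Rrm2 by 2.39 on the log2 scale at D3, and both stayed higher at D7, by 2.97 and 1.81. The rising genes thus held a replication enzyme, a licensing factor, activators of S phase and an inhibitor of it side by side. Tk1 and Fen1 were called at D3 and not at D7.

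Genes that fell at D3 were Ccnd1, Gins2, Rfc3, Pola1, Orc1, Mcm10, Lig1, Gins1, Mcm6, Mcm4 and Mcm5. Rfc3, with its E2F sites at the start, fell by 1.33 on the log2 scale (standard error 0.15, adjusted p = 0.00512 by edgeR quasi-likelihood with Benjamini-Hochberg adjustment), and Pola1 fell by 1.04. Ccnd1 fell by 2.63 at D3 and by 5.26 at D7. At D7 the called set also held Mcm2, Mcm3, Cdc6, Prim1, Pole and Tyms, so that 5 of the 6 helicase subunits had fallen and Mcm7 had not passed the test. Of the 4 origin-firing genes, 3 had fallen at D7, and Cdc45 had not passed.

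Between D3 and D7 no D0 library is compared, although the D0 libraries enter the size factors, which were taken over all 6 libraries. Most genes were lower at the later day. In untreated cells 30 of 35 genes were lower, where 7006 of 13153 of all genes were, with a median of -0.25 against -0.04. In FGF8-pretreated cells 33 of 35 were lower, where 6528 of 12869 of all genes were, with a median of -0.57 against -0.01. With size factors from the compared libraries alone, 27 members were lower in untreated and 33 in FGF8-pretreated cells. No gene was 2-fold higher in either treatment (backgrounds 8.77% and 8.16%). In untreated cells 1 gene, Ccnd1, was 2-fold lower (4.42%), and in FGF8-pretreated cells 3 were, Ccnd1, Rrm2 and Fen1 (5.4%). Rfc3 and Cdkn1a were higher at D7 than at D3 in both treatments, and the sign of Pcna in both and of Ccne1 and E2f1 in untreated cells changed with the scaling. In edgeR's fit of all libraries none of the 35 genes passed in either direction (background 0.0618% higher and 0.00686% lower), 14 were lower and none higher at an unadjusted p under 0.05 (10.3% of all genes lower), and DESeq2 called 4 lower (3.22%).

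Without the D0 pair, edgeR called 12 of 35 genes lower at D7 than at D3 (background 10.2%) and none higher. That fit had fewer residual degrees of freedom than the fit of all libraries. They were Ccnd1, Fen1, Uhrf1, Mcm10, Tk1, Mcm4, Prim1, Cdc45, Mcm5, Pole, Mcm7 and Orc1. Fen1 fell by 0.91 on the log2 scale (standard error 0.14, adjusted p = 0.00527 by edgeR quasi-likelihood with Benjamini-Hochberg adjustment) and Uhrf1 fell by 0.77. These 12 genes came from all 5 role groups, and 4 of them, Mcm4, Mcm5, Mcm7 and Orc1, are licensing factors.

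The FGF8 fold changes are given next for members with and without an E2F match, with no test. The 13 with a match had medians of 0.50 at D0, 0.44 at D3 and 0.30 at D7, and the 15 with a promoter entry and no match had 0.42, 0.57 and 0.29. From D0 to D3 in untreated cells the median was -0.54 for genes with a match and 0.02 for genes without, and 4 and none of them were at least 2-fold lower. With FGF8 these medians were -0.63 and 0.08, and 2 and 1 genes were 2-fold lower. From D3 to D7 the medians were -0.27 with and -0.18 without a match in untreated cells, and -0.35 and -0.63 in FGF8-pretreated cells, so the order of the sets was not the same in both treatments. These are descriptions of small sets, with the direction of single genes such as E2f2, which has a match and rose, going against the median.

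Related lists put these values in context, read by count and median only. With FGF8, 54.1%, 55.5% and 59.2% of all genes were higher at D0, D3 and D7. Of 36 other replication genes, 33, 35 and 35 were higher on these days, with medians of 0.36, 0.49 and 0.30. In this list Tipin, of the fork protection complex, had 2576 and 5180 normalized counts at D0, and Recql4, a helicase, had 203 and 689. Other nucleotide synthesis genes had medians of 0.43, 0.59 and 0.31 over the 10 with enough counts, all higher at D0 and D3, among them Shmt1 of the folate cycle at 0.99 at D0. Histone chaperones and S-phase chromatin factors had medians of 0.43, 0.26 and 0.24 over 10 genes, with Hells, a chromatin remodeler, at 0.83 at D0. In the edgeR test of a shared FGF8 effect none of these 3 lists had a called gene, and 19 of 36, 6 of 10 and 5 of 10 were higher at an unadjusted p under 0.05, against 10.3% of all genes.

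Mitosis genes, which act after S phase, had a lower median at D0 than at later days. Of 20 listed, 15 were higher with FGF8 at D0 (54.1% of all genes), with a median of 0.09 against 0.05 over all genes. At D3 and D7 all 20 were higher (55.5% and 59.2% of all genes), with medians of 0.57 and 0.31. Cdc20, which triggers anaphase, was lower at D0 (2005 and 1217 normalized counts) and higher at D3 (1965 and 3051). In untreated cells 13 of the 20 were at least 2-fold lower at D7 than at D0 (19.5% of all genes), and in the shared test of that comparison edgeR called 14 lower (24.8%) and none higher (29.2%), among them Top2a, the topoisomerase that untangles chromosomes. The CDK, cyclin and CDK inhibitor list had medians of 0.03, 0.35 and 0.17, and the E2F and RB family 0.41, 0.28 and 0.19.

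The p53 target list, which holds genes that act like Cdkn1a downstream of p53, had medians of -0.43, -0.15 and -0.02. At D0, 3 of its 14 genes with enough counts were at least 2-fold higher (7.27% of all genes) and 6 at least 2-fold lower (10.8%). Gadd45a went from 330.5 to 2700.0 and Sesn1 from 1749 to 659 normalized counts, so the list had no common direction. The edgeR test of a shared FGF8 effect called 1 of 14 lower (1.25% of all genes).

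**Figure D5:**
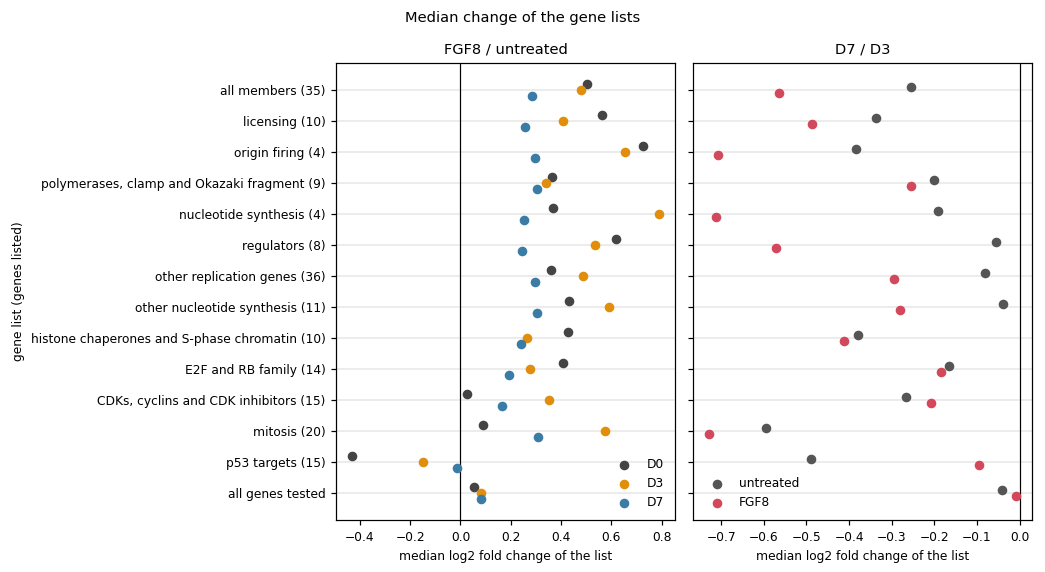
Median log2 fold change of each gene list (y axis, with the number of genes listed). The left panel shows FGF8 against untreated cells at D0, D3 and D7, and the right panel D7 against D3 within each treatment. All 5 role groups and the 3 lists of other S-phase genes lie at 0.24 or above on the left, mitosis genes lie at 0.09 at D0 and 0.57 at D3, and p53 targets lie below 0.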

How the data were processed

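The authors deposited raw gene counts, 1 file per library, from featureCounts after trimming (Trim Galore) and alignment to GRCm39 (HISAT2). Tool versions, annotation, strand setting and how multiply mapped reads were treated are not given in the sources used here. Counts were divided by DESeq2 size factors (version 1.42.0) over the 6 libraries. Fold changes used a pseudocount of 1, a 2-fold rule and a mean of at least 20 normalized counts, and 95% intervals cover counting error only. Shared effects were tested with edgeR (version 4.0.16, quasi-likelihood, TMM, filterByExpr, Benjamini-Hochberg), with 2 residual degrees of freedom in the fit of all libraries. Fits that left out a day had fewer, so their p-values rest on a weaker estimate of the error. Days or treatments stood in place of replicates. The error behind the p-values is how far the FGF8 difference varied between days, or the day difference between treatments, and not the spread of replicates. The main edgeR fit and the fold rule were also run on simulated counts with changes larger than most members showed with FGF8. That run does not measure their power or error rate for these data. Gene models came from GENCODE M39. Genes named in the lists were up to 3 per list, by the largest difference at D0 with a mean of at least 100. The longer promoter stretch printed ends before the first base in an annotated exon, and the short E2F sites were printed without this rule. The windows of Orc1, Cdt1, Cdc6 and Cdkn1a begin in an exon of some gene, so no such stretch was printed for them. The members and lists were chosen with earlier results of these data known. The work used R 4.3.3, Python 3.11.15, pandas 2.3.3 and scipy 1.17.1.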

Additional observations from a re-analysis of the deposited data

Results flagged for a closer look

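Several genes had fold changes of opposite sign in the FGF8 comparison of different days or in the time course of the treatments, each beyond its counting interval. None of these differences was tested, because each value compares 2 single libraries. Cdkn1a was lower with FGF8 at D0 (log2 fold change -0.13) and higher at D3 (0.43) and D7 (0.12). Ccnd2 was higher at D0 (1.07) and D3 (0.34) and lower at D7 (-0.11). From D0 to D3, Ccnd2 went up in untreated cells (0.55) and down in FGF8-pretreated cells (-0.18), and from D0 to D7 the values were 0.30 and -0.88. The comparisons with D0 include the libraries that stand apart in Xist, Ifi202b and Gbp2b.

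From D3 to D7, Gins2 had a log2 fold change of 0.26 in untreated and -0.35 in FGF8-pretreated cells. For Rfc4 the values were 0.17 and -0.25, and for E2f2 0.17 and -0.51.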

How the results depend on the processing

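In log2, another scaling moved the median of all genes by over 0.1 in 6 cases, total counts by -0.11 for FGF8 at D3, by -0.14 and -0.18 for D7 against D3 and against D0 in untreated cells, and by -0.21 and -0.28 for D3 and D7 against D0 with FGF8, and TMM by 0.10 for D3 against D0 in untreated cells. With total counts the member medians of these comparisons were 0.37, -0.40, -0.69, -0.56 and -1.13, and with TMM that of D3 against D0 in untreated cells was -0.14. Total counts also gave 0 members 2-fold higher with FGF8 at D3, 2 members 2-fold lower at D7 than D3 in untreated cells and 19 lower at D7 than D0 with FGF8. The shares of all genes under the 2-fold rule were not taken with total counts, so these counts are not read as a result about the members. The median of all genes for D7 against D0 with FGF8 was then -0.31.

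With a 1.5-fold rule 14, 11 and 4 members were higher with FGF8 at D0, D3 and D7 (16.9%, 15.6% and 5.95% of all genes), and with a 4-fold rule 1 at D0 and 0 at D3 (1.98% and 0.264%). With the counting interval in place of the fold rule, chosen after seeing the data, 30, 34 and 31 were higher and, at D0 and D7, 1 each lower. For lower genes the 1.5-fold rule gave 12, 5 and 16 in untreated cells for D3 against D0, D7 against D3 and D7 against D0 (27.1%, 12.8% and 31.3% of all genes) and 13, 17 and 22 with FGF8 (32.7%, 13.8% and 33.6%). The 4-fold rule gave 0 and 2 lower in untreated cells for D3 and D7 against D0 (5.1% and 6.59%), and 1, 1 and 2 with FGF8 (9.5%, 0.855% and 9.45%), with 3 and 2 higher at D3 and D7 against D0 (12.5% and 14.3%).

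For the shared FGF8 effect over all genes, counts of higher and lower genes were 3 and 182, and became 1 and 109 with median-of-ratios factors, 13 and 406 without a filter, 472 and 1220 with DESeq2 and 0 and 0 without the day block. Leaving out a day gave 0 to 569 higher and 0 to 1661 lower, and 0 to 4 members higher. DESeq2 called 6 members higher. The highest counts came without the D0 pair, and without D3 or D7 the counts were 0. Cdkn1a lay between -0.043 (without D3) and 0.25 (without D0) on the log2 scale. From D0 to D3, leaving out D7 gave 2287 and 1607 genes, with 5 members higher and 5 lower. Without the treatment block 1671 genes and 5 members were lower and 5 members higher. From D3 to D7, higher and lower genes numbered 199 and 69 without a filter, 851 and 468 with DESeq2, and 1578 and 1465 without the D0 pair. Without the treatment block 2 were higher. DESeq2 called 4 members lower, and leaving out D0 gave 12. From D0 to D7, 2383 genes were lower without the treatment block. Before the start alone, 8 members held an E2F match. The cause of these shifts was not tested, apart from the fewer libraries or bases that some alternatives use by construction.

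The lowest count of a member was 60. Each condition had 1 library, and the D0 libraries stand apart in genes outside the set.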
